A study of Drosophila melanogaster with 16 samples.

Results

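Chromatin accessibility at the genes of the JAK/STAT pathway was examined in fat body of adult Drosophila melanogaster females. The 10 genes were chosen by name: the ligands upd2 and upd3, the receptor dome, the kinase hop, the transcription factor Stat92E, the inhibitors Socs36E and Ptp61F, and the genes TotA, TotM and chinmo, which are known to respond to the pathway. The choice was made with earlier results of these data known. A peak, that is, a stretch of open chromatin, was counted for a gene when its midpoint lay in the gene or within 1 kb of either end. Of the 8069 peaks in the authors' deposited table, 25 met this rule. They lay at 9 of the 10 genes, and TotM had no peak.

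In this pathway a secreted Unpaired ligand binds the receptor Domeless, and the kinase Hopscotch, held on the receptor, then phosphorylates Stat92E, which enters the nucleus and switches on target genes. Targets include the pathway's own inhibitor Socs36E, which closes a feedback loop. In the fly the pathway is known for its part in the response to stress, wounding and infection, and the fat body is both a source of Unpaired 2 and the organ that secretes the Turandot stress peptides.

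The samples were ATAC-seq libraries, in which a transposase cuts open chromatin so that the reads in a peak measure its accessibility. The flies were w1118 virgins that spent 25 days at 25 °C, or at 11 °C, a cold in which adult females stop making eggs and enter diapause. The flies of either temperature were given volatilised ethanol (99%) or S-methoprene in it, a synthetic analog of juvenile hormone, for 4 groups of 4 libraries, with 25 flies to a library. Only flies with the ovary state awaited for their group were dissected: regressed at 11 °C with ethanol, and large at 11 °C with S-methoprene and in both groups at 25 °C.

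The one file analysed was the authors' deposited table of 25 °C against 11 °C on the dm6 build, which gives for each peak a mean over libraries at each temperature and no value per library. Nothing below therefore carries a standard deviation or a number of replicates, the depth of each library is unknown, and the drug groups could not be set against each other. The overall means weigh 25 °C against 11 °C as 3 to 4, where the labels list 8 libraries per temperature, so some 25 °C libraries did not enter. Which drug groups those means hold, and whether all 11 °C libraries entered, is not stated. Temperature and ovary state cannot be told apart. Of the genes listed as fat body markers, 10 of 12 had a peak, and their 31 peaks had summed mean reads of 7777 at 25 °C and 6547 at 11 °C. The sum was thus higher at 25 °C while the median difference (log2, 25 °C minus 11 °C) was -0.07, with 8 of the 31 peaks called in favour of 25 °C and 4 in favour of 11 °C. All 5 oenocyte markers had a peak, with sums of 2509 and 2216 reads, and 5 of their 12 peaks were called in favour of 25 °C and 0 in favour of 11 °C, with a median difference of 0.27. Most called fat body marker peaks and all called oenocyte marker peaks were thus in favour of 25 °C. The same direction held for most called peaks of the whole table, 981 of 1789, and for most called JAK/STAT peaks. Of the blood cell markers 2 of 7 had a peak, 1 of the 2 peaks being called in favour of 25 °C, with sums of 407 and 400 reads, and Hml, eater and He had none. Of the muscle markers 1 of 7 had a peak, called in favour of 25 °C, with 52.6 and 22.0 reads. Of the neuron markers 3 of 4 had a peak, with sums of 840 and 908 reads but a median difference of 0.04 over 4 peaks, of which 1 was called in favour of 11 °C. Of the 3 ovary markers that were matched 2 had a peak, with sums of 565 and 579 reads, a median difference of -0.05 and no called peak among 4. The part of these cells in the results below was not tested, and a smaller share of a cell type and less open chromatin per cell cannot be told apart in bulk tissue.

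Of the 25 peaks, 11 passed in the authors' deposited table a false discovery rate (FDR) under 0.05, and of these 8 were more open at 25 °C and 3 more open at 11 °C. That is 44.0%, where 22.2% of all 8069 peaks passed, 12.2% in favour of 25 °C and 10.0% in favour of 11 °C. Since the genes were chosen with earlier results of these data known, the 44.0% is a description and not a test. The called peaks lay at 6 of the 9 genes with a peak: Stat92E, Socs36E, upd2, Ptp61F, TotA and chinmo. Of all genes with a peak, 2107 of 9364 had a called one. A gene with more peaks has more chances of a call, and Ptp61F had 7, Socs36E 5 and Stat92E 4. The counts of genes were not adjusted for this and are a description as well. The receptor dome, the kinase hop and the ligand upd3 had peaks, and none of those was called. The 8 of 25 peaks in favour of 25 °C became 5 of 15 with the gene span alone. They became 4 of 21 without the 25% of all peaks with the lowest read level. Without peaks that also lay within 1 kb of another protein-coding gene they became 4 of 12. The 3 peaks in favour of 11 °C stayed 3 in each case. The shares of all peaks given above hold for the full set of peaks and were not worked out under these settings.

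Below, a level is the mean number of normalised reads in a peak, and a difference is the log2 mean at 25 °C minus the log2 mean at 11 °C. The FDR belongs to the authors' fitted log2 fold change, which was smaller in size than the difference at each of the 11 called peaks. Nearly all peaks of the table are 401 bp wide, so levels of different peaks refer to the same length. Over the 25 peaks the differences had a median of 0.05 and ran from -1.21 to 1.30. All peaks of the authors' table had a median of -0.02 and quartiles of -0.17 and 0.16. The called peaks held fewer reads than the others, with a median of 128 against 214, and the same was so over the whole table, with 125 against 173.

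**Figure D1:**
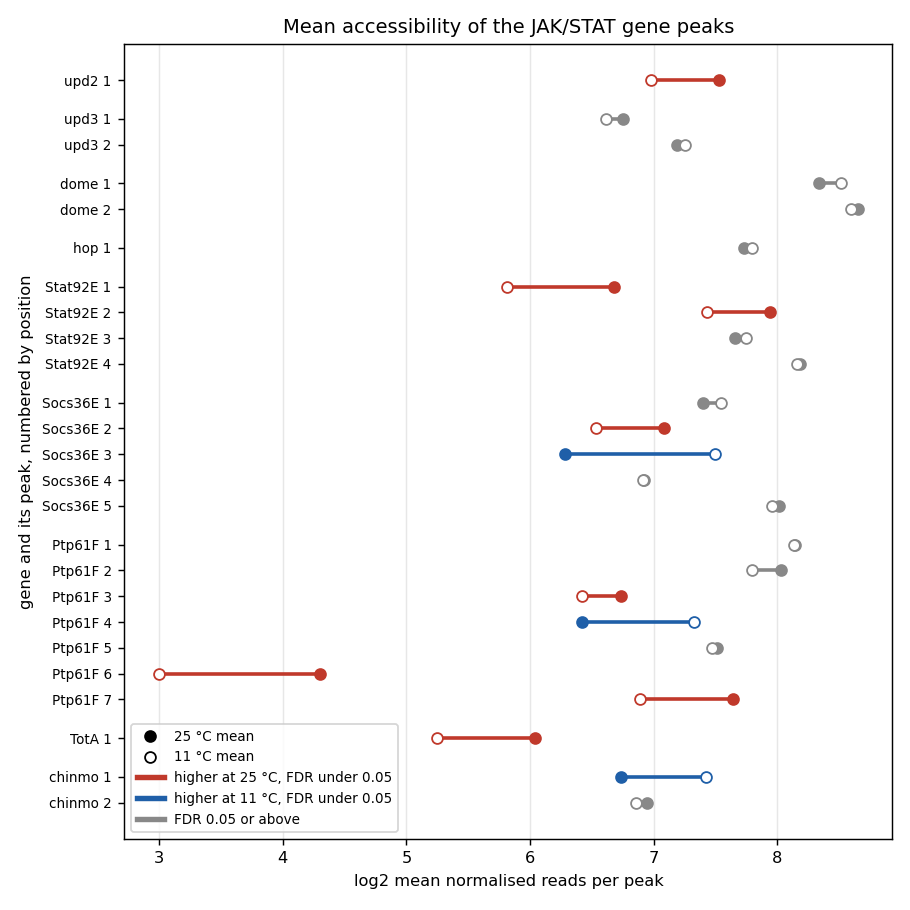
Log2 mean normalised reads of each of the 25 peaks at 25 °C (filled) and at 11 °C (open), in order of the genes' roles, with red and blue lines for the 8 peaks called in favour of 25 °C and the 3 called in favour of 11 °C. The means are the authors' and carry no error, and the widest gaps lie at Socs36E, Ptp61F and Stat92E.

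Among the ligands, upd2 was more open in the warm and upd3 showed no called change. Unpaired 2 is a cytokine that the fat body releases in the fed state and that acts on the brain. Its gene (X, 18240654 to 18243284) had a single peak, at 18243560 to 18243960, with its midpoint 476 bp beyond the gene's upper-coordinate end. In the authors' deposited table this peak held 185 reads at 25 °C and 126 at 11 °C. The level was thus 1.47-fold higher at 25 °C, a difference of 0.55 (fitted 0.47, FDR 0.00139).

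Unpaired 3 is the cytokine best known from blood cells and injured gut. Its gene (X, 18277233 to 18284596) had a peak 944 bp below its lower end, close to the limit of the 1 kb window, with 107 reads at 25 °C and 97.7 at 11 °C in the authors' deposited table (FDR 0.613). The peak within upd3 had 146 and 153 reads there (FDR 0.718). Both upd3 peaks thus had nearly equal means at the 2 temperatures, and whether upd2 and upd3 differ in their response was not tested.

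The receptor and the kinase had some of the most open of these peaks, and none was called. Domeless is the receptor through which Unpaired ligands signal. Both peaks of dome (X, 19676061 to 19683518) lay at its ends, and in the authors' deposited table they held 323 and 366 reads (25 °C, then 11 °C, FDR 0.482) at the lower end and 401 and 387 (FDR 0.782) at the upper end. With means over all libraries of 347 and 393 reads these were the highest levels among the 25 peaks, above those of 88.9% and 93.0% of all peaks. The first is also the peak of et, a neighbouring gene for a receptor relative that dampens the pathway, and the second lies by Ubqn as well.

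Hopscotch is the fly's Janus kinase. The gene hop (X, 11360930 to 11368098) had 1 peak, 233 bp beyond its upper end and also at an end of Tim8. The authors' deposited table gives 212 reads at 25 °C and 223 at 11 °C (FDR 0.865). All 3 peaks of the receptor and the kinase were thus shared with another protein-coding gene, with differences of -0.18 to 0.05.

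At Stat92E, the pathway's transcription factor, 2 of the 4 peaks were more open at 25 °C and the other 2 were not called. The gene lies on 3R at 20535323 to 20552311, and its called peaks are those of lower coordinate. The first, at 20534601 to 20535001, lay 522 bp outside the gene and held 102 reads at 25 °C and 56.1 at 11 °C in the authors' deposited table. Its level was 1.83-fold higher at 25 °C, a difference of 0.87 (fitted 0.82, FDR 1.28e-06). The metallothionein genes MtnE and MtnD lie within 1 kb of the same peak, and an end of one of the genes there is 97 bp away, so it cannot be given to Stat92E alone.

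The second peak, at 20543737 to 20544137, lay within Stat92E, 8374 bp from the nearer end, with no other gene in reach. It held 246 reads at 25 °C and 173 at 11 °C in the authors' deposited table, a 1.43-fold higher level at 25 °C and a difference of 0.51 (fitted 0.47, FDR 7.26e-05). The third peak, 2908 bp further on, had 202 and 215 reads (FDR 0.682), and the fourth 291 and 287 (FDR 0.861), both from the authors' deposited table. The interior of Stat92E thus held a called peak and, 2908 bp away, one with almost equal means.

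The inhibitors held 12 of the 25 peaks and changes in both directions. Of these 12, 4 were called in favour of 25 °C, 2 in favour of 11 °C and 6 were not called. Socs36E encodes a suppressor of cytokine signalling that is made in response to the pathway and turns it down. Its gene (2L, 18138675 to 18152417) had 5 peaks, and the called ones were neighbours inside the gene with opposite directions.

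The peak at 18143200 to 18143600 in Socs36E held 77.6 reads at 25 °C and 180 at 11 °C in the authors' deposited table. It was 2.32-fold higher at 11 °C, a difference of -1.21 (fitted -1.14, FDR 2.73e-11), which placed it 32nd among all 8069 peaks in order of difference in favour of 11 °C. The peak at 18141644 to 18142044, with its midpoint 1556 bp away, had 136 reads at 25 °C and 92.4 at 11 °C in the authors' deposited table, a difference of 0.55 (fitted 0.44, FDR 0.0052). No other gene lies within 1 kb of either peak, apart from Socs36E itself. From the lower to the upper of these neighbours the difference dropped by 1.77 on the log2 scale, and the table allows no test of that gap.

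The other 3 peaks of Socs36E were not called. In the authors' deposited table they held 168 and 187 reads at the lower end, in reach of kel (FDR 0.507), 122 and 121 within the gene (FDR 0.994), and 258 and 249 at the upper end, in reach of CG17681 (FDR 0.779). Accessibility at both ends of the gene and at the third inner peak was therefore close to equal at the 2 temperatures, with differences of -0.15 to 0.05.

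Ptp61F encodes a tyrosine phosphatase that removes phosphate from Hopscotch and Stat92E. It is the longest gene of the 10, at 132765 bp (3L, 1342493 to 1475257), and had the most peaks, 7, of which 4 were called. Without it the other genes held 5 peaks in favour of 25 °C and 2 in favour of 11 °C. Its called peaks were 3 in favour of 25 °C and 1 in favour of 11 °C.

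The peak in favour of 11 °C, at 1366886 to 1367286, held 85.6 reads at 25 °C and 160 at 11 °C in the authors' deposited table. Its level was 1.87-fold higher at 11 °C, a difference of -0.91 (fitted -0.83, FDR 6.77e-10), and it ranked 97th of all 8069 peaks in that direction. It lay 24593 bp inside Ptp61F with no other gene in reach. Of the Ptp61F peaks it was the single one within 1 kb of no other gene, so the assignment of the rest is less certain.

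The 3 peaks in favour of 25 °C all had neighbours. That at 1352107 to 1352507, near CG9166, had 107 reads at 25 °C and 85.6 at 11 °C in the authors' deposited table, a difference of 0.32 (FDR 0.0423), the called peak nearest to the FDR threshold. That at 1401562 to 1401962 had 199 and 118 reads in the authors' deposited table, a difference of 0.75 (fitted 0.71, FDR 2.36e-07). That at 1397457 to 1397857 had the largest ratio of the 25 peaks, 2.46-fold, but held 19.7 reads at 25 °C and 8.00 at 11 °C in the authors' deposited table (difference 1.30, FDR 0.000158). Its read level was above that of 0.899% of all peaks, and among the 807 peaks of lowest level it ranked 48th in size of difference.

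Peaks at 1397457 and 1401562, and the uncalled one at 1379672, lay within 1 kb of glutamate tRNA genes of the tRNA:Glu-CTC-3 family that sit inside the Ptp61F span. These genes are near-identical copies, and the sources used here do not say how multiply mapped reads were treated, so the levels of these peaks are uncertain. Without the 3 peaks in reach of a tRNA gene, 6 of the remaining member peaks were called in favour of 25 °C and 3 in favour of 11 °C. The uncalled Ptp61F peaks held 282 and 282 reads at the lower end (FDR 0.917), 261 and 223 near CG9166 (FDR 0.112), and 182 and 177 beside the tRNA genes and ru (FDR 0.898) in the authors' deposited table. Among the 14 uncalled member peaks, the one with an FDR of 0.112 was the closest to the threshold.

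**Figure D2:**
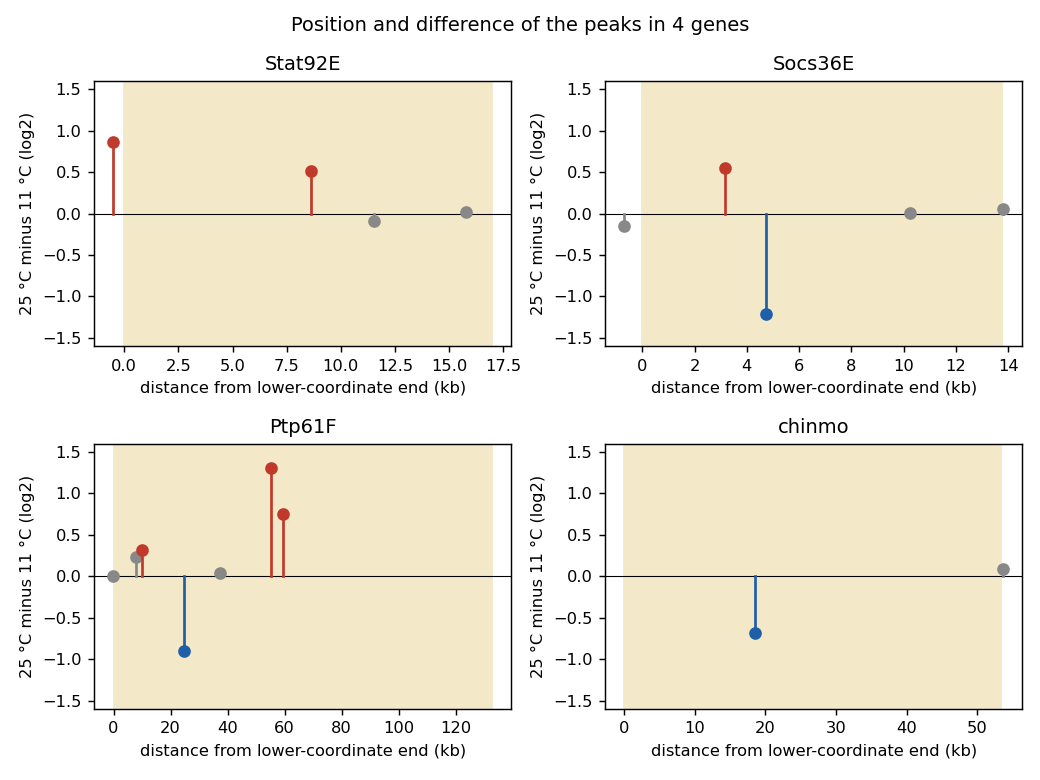
Difference of log2 means (25 °C minus 11 °C) of each peak against the distance of its midpoint from the gene's lower-coordinate end in kb, for Stat92E, Socs36E, Ptp61F and chinmo, with the gene span shaded. Red and blue mark peaks called in favour of 25 °C and 11 °C, grey those not called, and Socs36E shows 0.55 and -1.21 at peaks 1556 bp apart.

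Both Socs36E and Ptp61F held called peaks in each direction. Of the 188 genes in the reference with 5 or more peaks, 33.0% did so. In Socs36E and Ptp61F the peak at the lower end was not called and the one in favour of 11 °C lay in the interior.

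Of the genes known to respond to the pathway, TotA was more open at 25 °C at its 1 peak, and chinmo at 11 °C at 1 of its 2 peaks. Turandot A is a small peptide that the fat body secretes into the blood under heat, infection and other stress. The gene TotA (3R, 20871036 to 20871700) had 1 peak, at 20870710 to 20871110, which overlaps its lower end. It held 65.7 reads at 25 °C and 38.0 at 11 °C in the authors' deposited table, a 1.73-fold higher level at 25 °C and a difference of 0.79 (fitted 0.74, FDR 1.98e-05). Both means are low, since its level lay above that of 7.24% of all peaks.

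TotM, a relative of TotA that is also induced by stress (2L, 5329857 to 5330464), had no peak within 1 kb. The nearest one, 2354 bp outside the gene and in reach of another gene, had 280 reads at 25 °C and 302 at 11 °C in the authors' deposited table (FDR 0.678). The table lists peaks only, so the accessibility of the TotM gene itself was not measured here.

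chinmo encodes a zinc finger factor of the BTB class that acts below JAK/STAT in stem cells of the testis and sets neuron identity over time. The gene (2L, 1651258 to 1704682) had a peak at 1669659 to 1670059, 18601 bp from its nearer end and with no other gene in reach. It held 107 reads at 25 °C and 171 at 11 °C in the authors' deposited table, a 1.61-fold higher level at 11 °C and a difference of -0.69 (fitted -0.63, FDR 3.66e-06). The second peak, 296 bp beyond the upper end and shared with cpb, had 123 and 116 reads in the authors' deposited table (FDR 0.56). All 3 member peaks in favour of 11 °C, those of Socs36E, Ptp61F and chinmo, lay inside a single gene's body with no other gene within 1 kb.

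**Figure D3:**
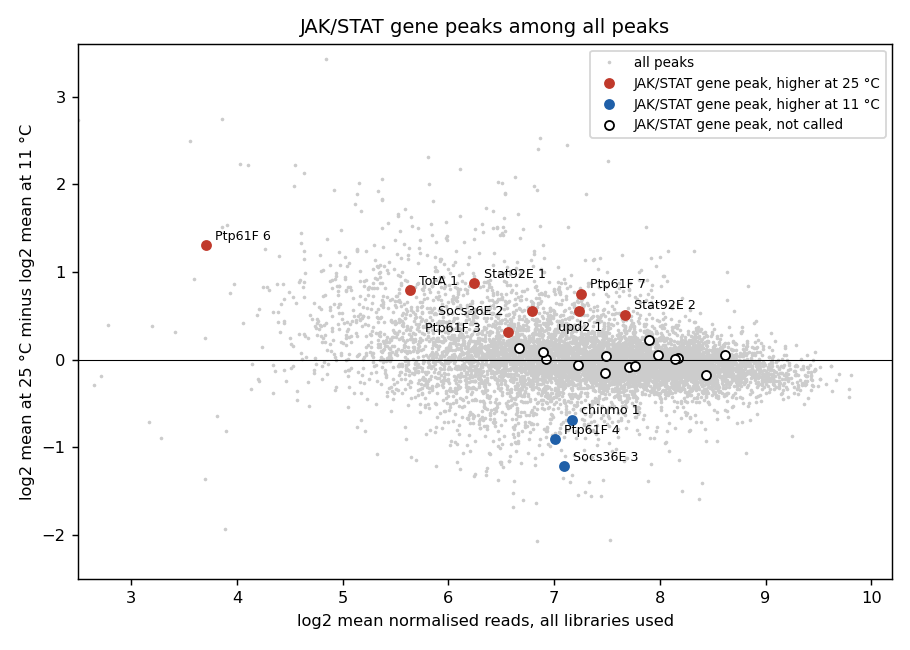
Difference of log2 means (25 °C minus 11 °C) against the log2 mean over all libraries used, for all peaks within the axes (grey) and the 25 JAK/STAT gene peaks (circles, filled where called). Peaks of the very lowest levels fall outside the axes. The 14 uncalled ones lie between -0.18 and 0.23, and the 3 in favour of 11 °C lie at 128 to 144 mean reads.

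By place, 13 of the 25 peaks lay within 500 bp of an end of some gene, 11 in the body of a gene and 1 between genes. Of the 13 at gene ends 5 were called, and of the 11 in gene bodies 6. Among all peaks, 15.3% of those at gene ends, 33.0% of those in gene bodies and 39.2% of those between genes were called. Another protein-coding gene lay within 1 kb of 13 of the 25 peaks, and of 4 of the 11 called ones: the first Stat92E peak and the 3 Ptp61F peaks in favour of 25 °C.

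The wider pathway was described with 25 further genes, of which 19 had a peak. Leaving out the peak that et shares with dome, 34 peaks remained, of which 2 were called in favour of 25 °C and 6 in favour of 11 °C in the authors' deposited table. That is 23.5%, close to the 22.2% of all peaks, and the median difference was -0.09. The 6 genes without a peak were the ligand gene upd1, the Turandot genes TotB, TotF and TotZ, Tep1 and slbo.

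Both called peaks in favour of 25 °C were at Turandot genes. In the authors' deposited table, TotC (3R, 20872511 to 20872911) had 88.6 reads at 25 °C and 52.9 at 11 °C, a difference of 0.74 (fitted 0.68, FDR 0.000229). TotX (3R, 20905393 to 20905793, also near Grik) had 115 and 80.2 there, a difference of 0.52 (fitted 0.40, FDR 0.00739). With TotA, all 3 of the Turandot genes listed here that had a peak were therefore more open at 25 °C there. Each of these peaks has its midpoint outside its gene. The levels at TotC and TotX were also low, above those of 13.5% and 24.0% of all peaks. The TotC peak lies 1011 bp outside TotA, so it is just beyond the window that gave TotA its own peak.

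**Figure D4:**
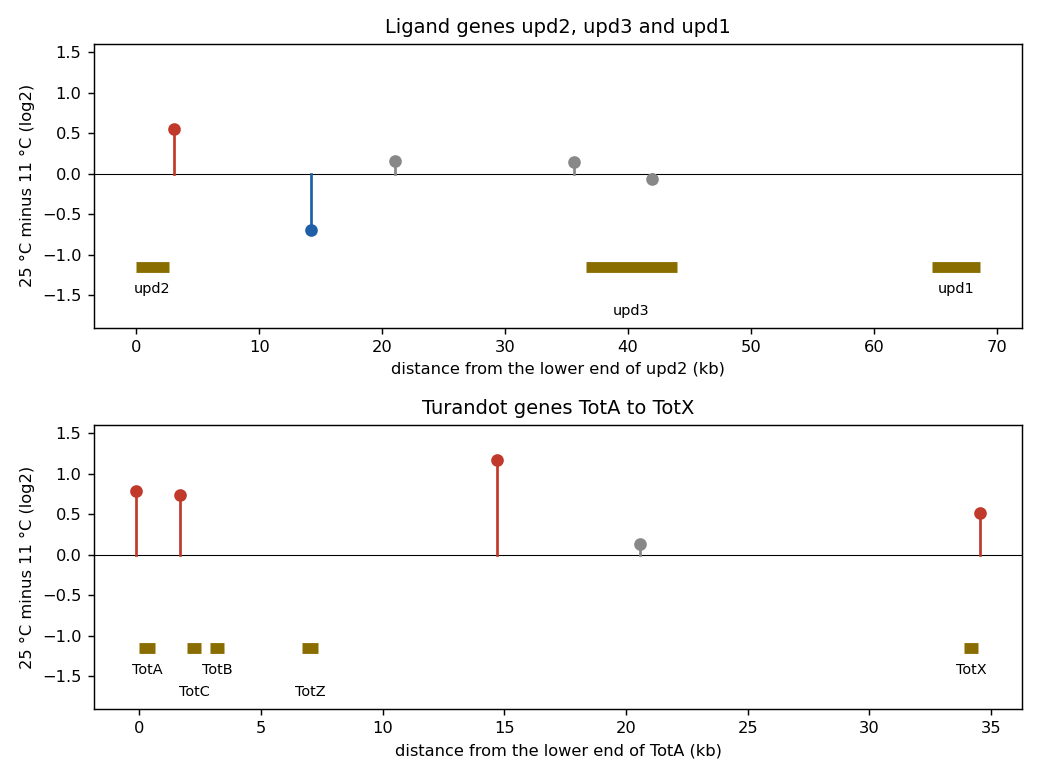
Difference of log2 means (25 °C minus 11 °C) of each peak against distance in kb along the stretch of the ligand genes upd2, upd3 and upd1 (upper panel) and of the Turandot genes TotA to TotX (lower panel), with those genes as brown bars and other genes not drawn. Red marks peaks called in favour of 25 °C, blue in favour of 11 °C and grey those not called, and the lower panel has 4 red peaks of 5, of which the one at 1.17 lies between genes.

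The 6 peaks in favour of 11 °C had smaller differences, from -0.48 to -0.31. Stam, a protein that sorts receptors on endosomes, had 158 reads at 25 °C and 212 at 11 °C at a peak shared with aurB (difference -0.42, FDR 0.0023), in the authors' deposited table. For lwr, the gene of the SUMO-conjugating enzyme, the peak shared with ush had a difference of -0.37 (FDR 0.00454 in the authors' deposited table). The other lwr peak, shared with Spp, lay the other way at 0.33 and was not called (FDR 0.0604 in the authors' deposited table). For apt, the gene of a nuclear protein that limits STAT signalling in the ovary, the peak shared with Pi3K59F and CG30184 had -0.40 (FDR 0.00781 in the authors' deposited table). Socs16D, a relative of Socs36E, had 2 such peaks with -0.48 (FDR 0.0495) and -0.31 (FDR 0.0359), and vir-1, a gene induced by virus, had 1 with -0.34 (FDR 0.0485) in the authors' deposited table. These last 3 lay close to the threshold, and 3 of the 6 stayed under an FDR of 0.01, which 14.9% of all peaks passed.

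**Figure D5:**
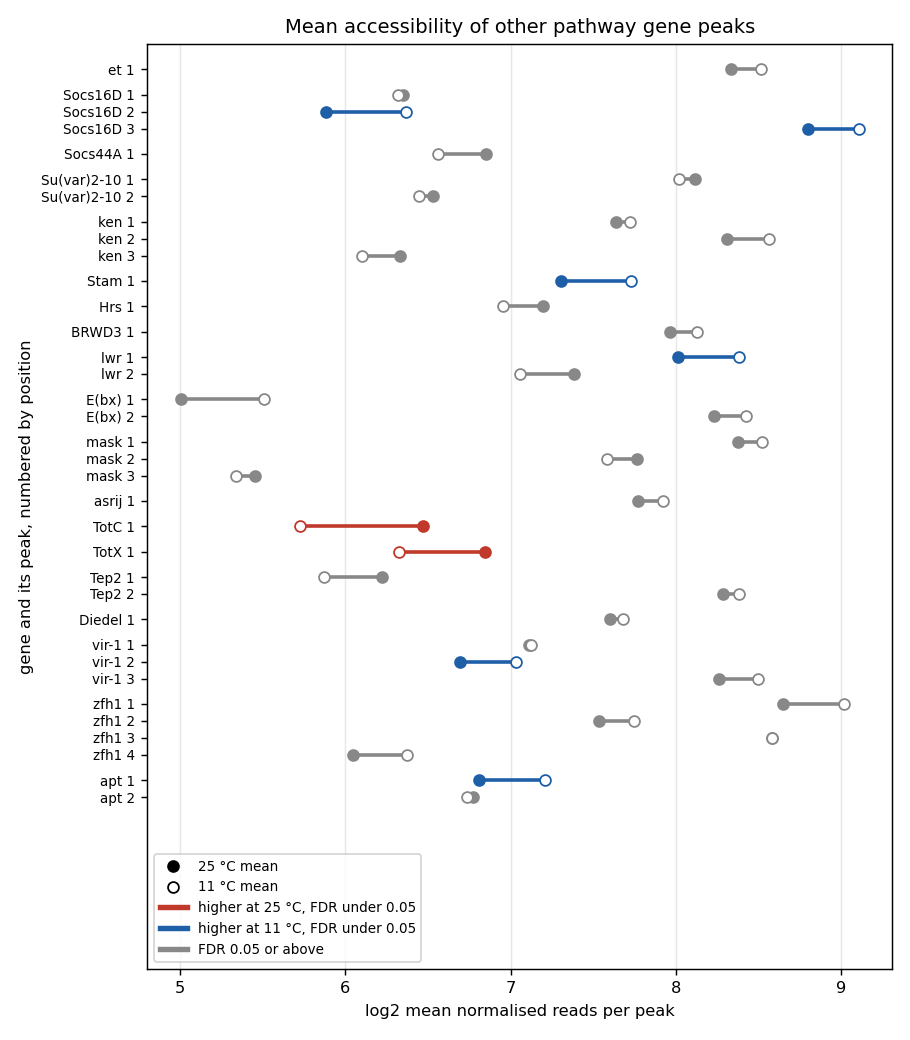
Log2 mean normalised reads at 25 °C (filled) and 11 °C (open) of the peaks of 19 other pathway genes, with called peaks in colour (red in favour of 25 °C, blue in favour of 11 °C). The 2 red ones belong to TotC and TotX, and the 6 blue ones to Socs16D, Stam, lwr, vir-1 and apt.

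Socs44A, another relative of Socs36E, the SUMO ligase gene Su(var)2-10 and the repressor gene ken had peaks and no called one. Their smallest FDRs in the authors' deposited table were 0.126, 0.520 and 0.126. A peak at zfh1, a zinc finger gene that responds to the pathway in the testis, missed the threshold with an FDR of 0.0508, in favour of 11 °C.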

How the data were processed

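The authors deposited a table of 8069 peaks with, per the file headers, log2 mean concentrations (normalised reads per peak) over all libraries used and per temperature, the fitted log2 fold change, and its p-value and FDR. Per the submitters' processing notes the tools were DiffBind, MACS2, Bowtie2, Picard, SAMtools, bedtools, Trim Galore, cutadapt and FastQC, with the build dm6. Versions, roles, the shift for transposase cuts, duplicate handling and scaling between libraries are not given in the sources used here. Scaling can move all differences by one amount, and multiply mapped reads can move values at repeated genes.

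No model could be refitted without values per library. A Benjamini-Hochberg adjustment of the deposited p-values over all peaks gave the deposited FDR to within 1.83e-15, and the sign of the fitted fold change opposed the difference of means in 240 peaks, none of them called. The overall mean weighs 25 °C by 3 in 7 parts within 1e-06 in 3446 of the 3457 peaks whose means differ by over 0.2 (log2).

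Gene spans, without strand or exons, were taken from RefSeq's genes of the assembly Release 6 plus ISO1 MT, which underlies dm6, and all 35 pathway genes matched by symbol. Sequences were not used here. A peak was called at an FDR under 0.05 and given the direction of its difference. Python 3.11.15 with pandas 2.3.3 was used, and the step from peaks to genes was tested on simulated intervals. The 10 genes, the list of 25 further genes and the rules were chosen with earlier results of these data known. The rule for named peaks was every peak of the 10 genes and, of the further genes, the called peaks, up to 5 in each direction by difference. Peaks of Socs16D (-0.31), lwr (0.33), Socs44A, Su(var)2-10, ken and zfh1 were named outside it, after their values were seen. Alternatives were the window, the FDR threshold, a filter on low levels, shared peaks, the fitted fold change and centring by level.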

Additional observations from a re-analysis of the deposited data

How the results depend on the processing

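The count of 8 of 25 peaks in favour of 25 °C became 5 of 15 with the gene span alone. It became 4 of 21 without the 25% of peaks of lowest read level and 4 of 12 without peaks that reach another protein-coding gene. Without Ptp61F, an alternative chosen after seeing the data, it became 5 of 18. It stayed within 1.5 times under the other settings, and the count of 3 in favour of 11 °C did so under all of them. The median difference over the 25 peaks, 0.05, was 0.0412 with the gene span alone, 0.0535 with a 2 kb window, 0.0209 without the weakest peaks, 0.0161 without shared peaks, 0.0328 with the fitted fold change, 0.0877 when centred on peaks of like read level and 0.0366 without Ptp61F. It was above 0 in each case, and small beside the quartiles of all peaks. For the further pathway genes, 2 of 34 peaks were called in favour of 25 °C. They became 0 of 22 with the gene span alone, 0 of 24 without the weakest peaks and 1 of 17 without shared peaks. The 6 in favour of 11 °C became 3 at an FDR under 0.01 and 3 of 17 without shared peaks. The median difference of the further genes, -0.09, was -0.15 with the gene span alone, -0.0824 with a 2 kb window and -0.15 without the weakest peaks. It was -0.16 without shared peaks, -0.0468 with the fitted fold change and -0.0644 when centred. Settings that drop peaks have fewer to call, and the share of all peaks called under them was not worked out. The cause of the other shifts was not tested. All 33 single peaks compared kept their sign with the fitted fold change.

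No paired analysis was possible because values per library were not analysed here, and leaving out a replicate could not be run for the same reason. Depth per library is unknown.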

Other observations

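Peaks that no gene of the pathway reached within 1 kb lay among its clustered genes, and they were looked at after the values were seen. The genes TotA, TotC, TotB, TotZ and TotX lie in 34.5 kb of 3R. That stretch with 1 kb on either side held 5 peaks, of which 4 were called in favour of 25 °C in the authors' deposited table. One of the 4, at 20885527 to 20885927, lies 4971 bp from the nearest gene end. It held 86.0 reads at 25 °C and 38.2 at 11 °C in the authors' deposited table, a difference of 1.17 (fitted 1.06, FDR 1.72e-09), which is larger than that of TotA, TotC or TotX. The remaining peak, at a group of threonine tRNA genes, had 474 and 430 reads in the authors' deposited table (FDR 0.322).

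The ligand genes upd2, upd3 and upd1 lie in 68.6 kb of the X chromosome, also with 5 peaks. Between upd2 and upd3 a peak at 18254637 to 18255037 went the other way from that of upd2, with 59.6 reads at 25 °C and 96.2 at 11 °C in the authors' deposited table (difference -0.69, fitted -0.62, FDR 0.000294). A further one at 18261477 to 18261877 had 47.6 and 42.6 reads in the authors' deposited table (FDR 0.867). Which gene, if any, these peaks belong to was not tested.

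Beyond the window, 3 peaks lay 1 to 2 kb outside a member gene, each of them in reach of another gene. Among them was that of TotC. The one 1691 bp outside hop, in reach of dsh and Pa1, had 104 and 90.6 reads in the authors' deposited table (FDR 0.363). The one 1937 bp outside Socs36E, in reach of kel, had 70.0 and 70.0 reads in the authors' deposited table (FDR 0.933).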
